A study of Mus musculus with 8 samples.

Results

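The axon guidance ligands and receptors of the mouse were examined in primary myofibroblastic hepatic stellate cells (pMF-HSCs) treated or not with OSMI-1, a small-molecule inhibitor of OGT (O-GlcNAc transferase, which attaches single N-acetylglucosamine sugars to proteins inside the cell). They were taken as every row of the expression tables whose symbol belongs to the class 3 to 7 semaphorins, the plexins, the neuropilins, Slit, Robo, the ephrins, the Eph receptors, the netrins or the Unc5 receptors. This gave 68 of 40840 listed genes, 35 encoding ligands and 33 encoding receptors, defined by symbol alone. Hepatic stellate cells are the retinoid-storing pericytes of the liver, which turn into collagen-producing myofibroblasts upon injury or when plated on plastic. The cells came from the livers of male C57BL/6J mice aged 15 to 18 weeks and were sorted for retinol autofluorescence after a density gradient. They were grown in serum-containing medium until day 7, with the inhibitor at 50 µM in DMSO (OGTi) or with DMSO alone (control) for 24 h, and bulk RNA was sequenced from 4 control and 4 OGTi samples. The samples form 4 pairs, each holding the control and OGTi samples of one replicate number. All 8 samples were therefore already activated in culture, no quiescent cells were part of this comparison, and the labels do not say whether a replicate was 1 animal or a pool.

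Axon guidance cues were named for steering growth cones, and outside the nervous system the same proteins direct cell migration, adhesion, cell sorting and vessel patterning. Semaphorins signal through plexins, and the secreted class 3 semaphorins generally need a neuropilin as co-receptor. Ephrins are held at the membrane, by a lipid anchor for ephrin-As and a transmembrane segment for ephrin-Bs, and activate Eph receptor tyrosine kinases on neighbouring cells. Slits are secreted ligands of Robo receptors, and netrins are secreted ligands of DCC, neogenin and the Unc5 receptors. Most of these receptors act on the actin cytoskeleton. In stellate cells, neuropilin 1 is also known as a co-receptor that enhances platelet-derived growth factor and TGF-β signalling.

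The 8 libraries held 30068876 to 37372420 estimated counts each. The 68 genes together took 0.178 to 0.224% of the counts of a control library and 0.0755 to 0.159% of those of an OGTi library, and these ranges did not overlap. Of the 10 stellate and myofibroblast markers examined, every one was detected above 1 TPM (RSEM's length-normalised transcript abundance) in at least 1 library, and their summed level was 4630 to 7840 TPM in controls and 3960 to 8900 TPM in OGTi samples. Lrat, Pdgfrb and Hgf were lower with OGTi among them, whereas Acta2, the smooth muscle actin of myofibroblasts, had a log2 fold change of 0.05 ± 0.25 (SE). Hepatocyte markers summed to at most 1.67 TPM and mesothelial markers to at most 13.9 TPM in any library. The 8 macrophage markers summed to 19.8 to 39.7 TPM in controls and 30.8 to 71.6 TPM in OGTi samples, mostly as Cd68, which was called higher, whereas 6 of the 8 had a log2 fold change below 0 without being called. The 4 cholangiocyte markers summed to 305 to 652 TPM in controls and 125 to 551 TPM in OGTi samples, mostly as Spp1, and Krt19 was called lower. The 6 Schwann cell or neuronal markers summed to 1.15 to 5.66 TPM in controls and 1.41 to 17.3 TPM in OGTi samples. Of the hepatocyte and of the Schwann cell or neuronal markers, 1 each was called higher, and no mesothelial marker was called. In bulk RNA, fewer cells of a type and less RNA per cell cannot be told apart.

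Fold changes are given on the log2 scale as OGTi minus control within pairs, with their standard error (SE), from edgeR's quasi-likelihood test in which replicate number was a blocking term, and a gene was called when its p adjusted over all genes by Benjamini-Hochberg was at most 0.05. At least 10 counts in total were needed for a test, and 64 of the 68 genes reached this. Epha5, Epha8, Ntn5 and Sema3g, with 9, 6, 5 and 2 counts over the 8 libraries, were not tested. OGTi lowered 11 guidance genes (17.2% of the 64) and raised 2 (3.12%), while 51 were not called. Over all 19963 genes tested, 10.2% were called lower and 8.13% higher, so that 18.4% were called against 20.3% of the guidance genes. Thus the share called was near that of all genes, and the lower calls made up 11 of 13. Without replicate 3 or without replicate 4, 7 guidance genes were called. The calls over all genes then fell from 3666 to 1905 and 1956. The median log2 fold change of the 64 genes was -0.55, against 0.005 for all genes tested, and 43 of the 64 had a value below 0. Called ligands were Sema3a, Sema3d, Sema6d, Efna4 and Efna5, all lower, and Sema6a, higher. Called receptors were Plxnb1, Plxnd1, Epha7, Ephb4, Robo1 and Unc5b, all lower, and Epha10, higher.

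Values per sample are given as scaled counts, that is, expected counts brought to one common library size with edgeR's TMM factors. The 13 called genes moved in the same direction in all 4 pairs. In 12 of them (92.3%) the control and OGTi values did not overlap, the exception being Efna5, against 82.3% of all genes called. Among the 64 guidance genes tested 17 (26.6%) did not overlap, and among all genes tested 23.5%. Pair 2 had the smallest decrease in 7 of the 11 lower genes, and the largest was in pair 3 for 5 genes, in pair 1 for 4 and in pair 4 for 2. The plot of scaled counts by pair shows this for each gene.

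**Figure D1:**
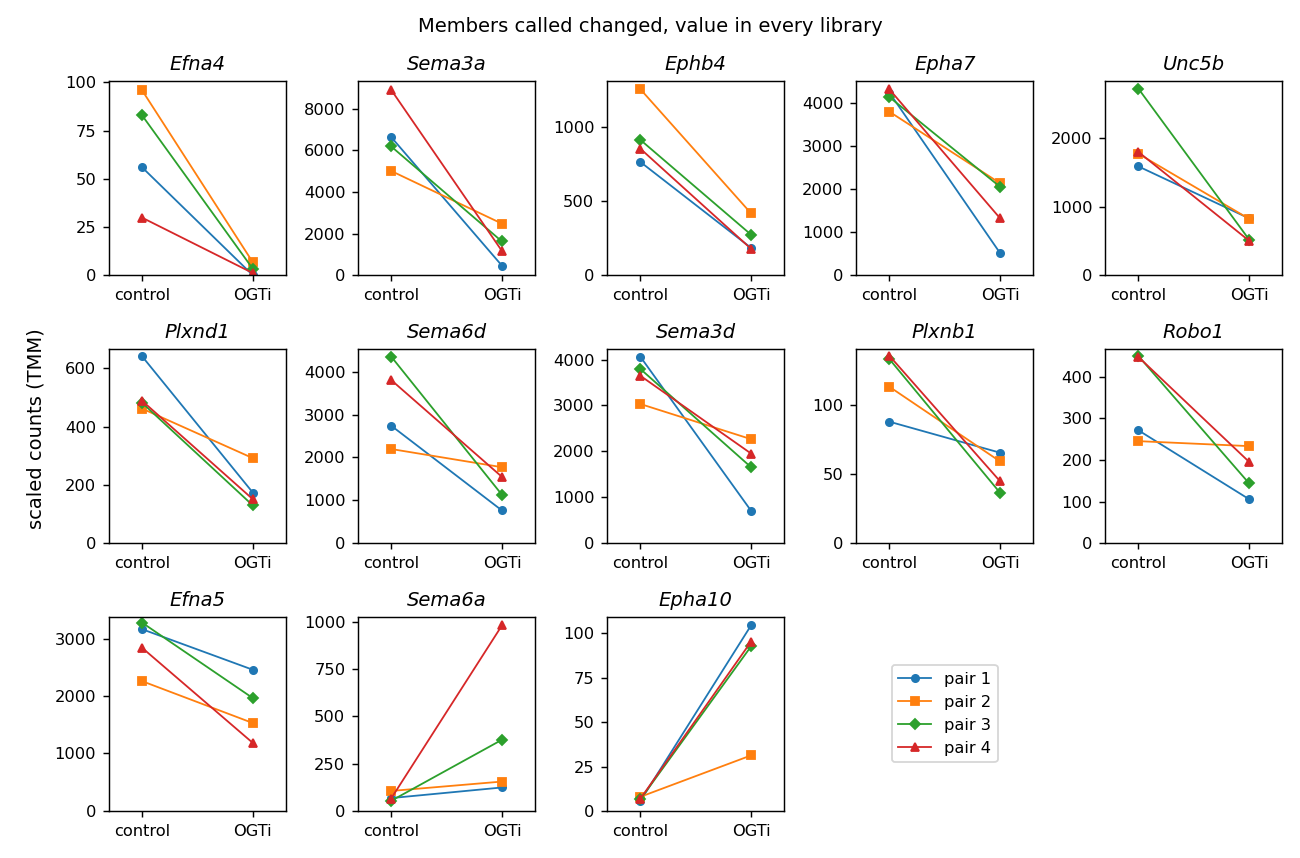
Scaled counts (y axis from 0) of the 13 called guidance genes in control and OGTi samples (x axis), where each line joins the 2 samples of 1 replicate number. All 11 lower genes fall in every pair and Sema6a and Epha10 rise in every pair, with the Sema6a rise largest in pairs 3 and 4 and the Epha10 rise smallest in pair 2.

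Levels between genes were compared as TPM, which is per transcript length. Only 25 of the 68 genes had a mean of at least 1 TPM over the 8 libraries. Nrp1 was highest, at 97.6 ± 15.2 TPM in controls and 75.1 ± 28.2 TPM in OGTi samples (SD, n = 4 each). It was followed by Plxnb2, at 78.9 ± 12.6 TPM in controls and 45.6 ± 16.8 TPM in OGTi samples, and by Epha2, at 70.2 ± 9.20 TPM in controls and 50.1 ± 16.7 TPM in OGTi samples. The control ranges of these neighbouring genes overlapped, so their order was not separated by the spread between samples. Sema3a was the most abundant ligand in controls, at 54.3 ± 13.4 TPM, ahead of Efna5 at 28.1 ± 4.74 and Sema3d at 27.9 ± 3.50 TPM. In OGTi samples Sema3a averaged 9.81 ± 6.63 TPM, Efna5 13.6 ± 3.00 TPM and Sema3d 10.5 ± 5.14 TPM, with overlapping ranges. Of the 25 genes, 10 were called lower (40%) and 1 higher, against 14.7% lower and 9.95% higher among the 11659 genes of all kinds at this level. The cut uses both groups, so these counts depend partly on the changes themselves. Efna4 (2.36 TPM in controls and 0.085 with OGTi) and Robo1 (1.97 and 0.752 TPM) passed it through the controls alone. Sema6a (0.378 and 1.78 TPM) passed it through the OGTi samples alone. Among the 39 tested genes with a mean below 1 TPM, Plxnb1 was called lower and Epha10 higher.

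By family, the summed level of the 20 semaphorins was 104 to 156 TPM in controls and 17.7 to 71.2 TPM in OGTi samples. That of the 9 plexins was 96.4 to 132 TPM in controls and 41.7 to 101 TPM in OGTi samples, and that of the 9 EphA receptors was 101 to 132 and 33.7 to 85 TPM. Unc5 receptors summed to 15.4 to 26.2 TPM in controls and 4.03 to 8.24 TPM in OGTi samples, and EphB receptors to 10.4 to 17 and 3.08 to 7.28 TPM. On this scale the median log2(TPM + 1) difference was itself -0.22 over genes with a mean of at least 0.1 TPM, and -0.10 without that limit. The semaphorin, EphA, EphB, ephrin-A, ephrin-B and Unc5 sums did not overlap between groups. Those of the plexins, neuropilins, netrins, Robo and Slit did. The 3 Slit genes reached at most 0.36 TPM together in any library, while their receptors Robo1 and Robo2 were at 1.97 and 14.4 TPM in controls on average.

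Among the class 3 semaphorins, Sema3a and Sema3d were called lower out of 6 tested. Sema3a, the prototypical growth cone collapsing factor that binds Nrp1, was at 6637, 5009, 6188 and 8903 scaled counts in control replicates 1 to 4 and at 462, 2479, 1623 and 1166 in OGTi replicates 1 to 4. The highest OGTi value was below the lowest control value, and the log2 fold change was -2.43 ± 0.41 (adjusted p = 0.00349). Sema3d, a secreted cue with known roles in vascular patterning, was at 4065, 3032, 3797 and 3648 scaled counts in controls and at 706, 2265, 1654 and 1952 with OGTi. Its groups did not overlap either, and OGTi replicate 1 was the lowest sample by a wide margin (log2 fold change -1.25 ± 0.32, adjusted p = 0.0233). The Sema3d call was lost without replicate 3 (adjusted p = 0.0693) or 4 (adjusted p = 0.0624) and with limma on unfiltered TPM (0.0705). Sema3e, which binds Plxnd1 directly without a neuropilin, was at 3024, 1746, 2180 and 2059 scaled counts in controls and at 346, 1235, 1438 and 979 with OGTi. Although these groups did not overlap, Sema3e was not called (log2 fold change -1.28 ± 0.40, adjusted p = 0.0532). Its pair 1 difference was -3.12, against -0.50 to -1.07 in the other pairs, and without replicate 1 its log2 fold change was -0.72 with an adjusted p of 0.0468. Sema3c, which can signal through either neuropilin, was at 1.34 ± 0.541 TPM in controls and 1.79 ± 1.05 TPM in OGTi samples, with a log2 fold change of 0.56 ± 0.37 (adjusted p = 0.326). Sema3b and Sema3f stayed below 1 TPM in every library and were not called.

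Sema3d, Sema3a, Sema3e and Sema3c lie in this order on the plus strand of chromosome 5, within 5.50 Mb at chr5:12433124-17935648 (GRCm39, GENCODE annotation). Sema3d spans chr5:12433124-12638929, Sema3a chr5:13175288-13653578, Sema3e chr5:14075290-14306719 and Sema3c chr5:17779219-17935648. The 3 that lie closest together, Sema3d, Sema3a and Sema3e, had log2 fold changes of -1.25, -2.43 and -1.28, whereas Sema3c, at the far end, had 0.56. The stretch holds 21 protein-coding genes, of which 8 were tested. Among the 4 that are no semaphorins, Hgf, the hepatocyte growth factor secreted by stellate cells, was called lower (-2.13 ± 0.30, adjusted p = 0.00156). Speer3, whose family of near-identical copies can share reads, Pclo and Cacna2d1 were not called, at -0.68 ± 0.43, -0.18 ± 1.51 and -0.23 ± 0.22.

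**Figure D2:**
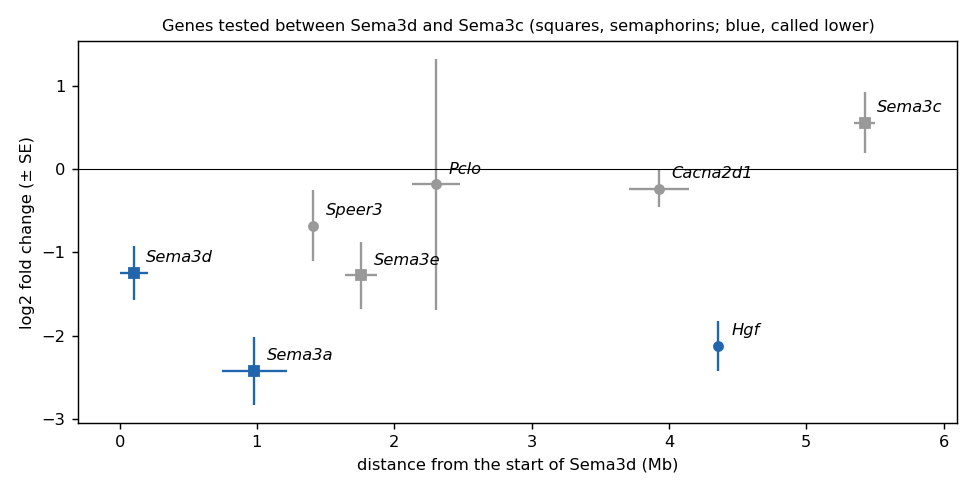
Log2 fold change (y axis, bars show ± SE) of the 8 genes tested between Sema3d and Sema3c, against their distance from the start of Sema3d in Mb (x axis, horizontal bars show the gene's extent), with squares for semaphorins and blue for genes called lower. Sema3d, Sema3a and Hgf are called lower, Sema3e lies near Sema3d in fold change but is grey, and Sema3c is the single gene above 0.

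The start regions of Sema3d, Sema3e and Sema3c differ in their CpG dinucleotides, the sites of DNA methylation in vertebrates, and are shown because their genes lie on one stretch of chromosome and had unlike fold changes. For Sema3a the RefSeq table gives a start 272.0 kb inside the gene as annotated on the same build, so that its window is not shown, while the other windows lie at the gene start (within 5 bases). Each window runs from 250 bases before to 50 after the transcription start, is written 5′ to 3′ on the gene's strand and comes from RefSeq on GRCm38.p6, an older build than the one above. CpG dinucleotides are in capitals. The windows are chr5:12382916-12383215 for Sema3d, chr5:14025026-14025325 for Sema3e and chr5:17574566-17574865 for Sema3c.
Sema3d: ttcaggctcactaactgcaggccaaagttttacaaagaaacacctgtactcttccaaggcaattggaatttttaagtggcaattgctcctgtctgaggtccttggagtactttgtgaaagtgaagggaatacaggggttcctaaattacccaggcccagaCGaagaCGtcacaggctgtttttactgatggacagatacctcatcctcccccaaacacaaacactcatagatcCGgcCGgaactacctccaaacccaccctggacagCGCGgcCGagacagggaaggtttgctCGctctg
Sema3e: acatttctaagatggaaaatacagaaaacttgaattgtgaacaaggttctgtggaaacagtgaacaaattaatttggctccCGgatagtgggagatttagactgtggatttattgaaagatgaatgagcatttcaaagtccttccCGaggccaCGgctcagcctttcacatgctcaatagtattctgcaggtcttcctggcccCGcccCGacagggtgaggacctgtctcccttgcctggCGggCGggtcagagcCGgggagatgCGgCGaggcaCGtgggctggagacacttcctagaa
Sema3c: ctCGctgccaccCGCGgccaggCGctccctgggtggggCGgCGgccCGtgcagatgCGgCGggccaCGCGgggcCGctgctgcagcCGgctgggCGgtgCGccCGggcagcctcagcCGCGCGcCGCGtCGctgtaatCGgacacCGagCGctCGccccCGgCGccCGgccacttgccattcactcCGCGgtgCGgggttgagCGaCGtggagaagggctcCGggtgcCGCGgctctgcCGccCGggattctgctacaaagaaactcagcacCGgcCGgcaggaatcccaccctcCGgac
The Sema3d window held 8 CpGs at 49.7% G or C and the Sema3e window 11 at 50.7%. That of Sema3c held 42 at 75.7%. The 59 guidance genes with a RefSeq window had a median of 21 CpGs, and the genes tested had a median of 17. No methylation or binding was measured in these samples, so the sequences are a description only.

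Of the 13 class 4 to 7 semaphorins, which are membrane-bound, Sema6d was called lower and Sema6a higher. Sema6d, a transmembrane ligand of Plxna1, was at 2742, 2197, 4356 and 3808 scaled counts in controls and at 762, 1772, 1128 and 1546 with OGTi. The groups were separate, with a log2 fold change of -1.36 ± 0.29 (adjusted p = 0.00997), and the call was lost without replicate 3 (adjusted p = 0.0575). Sema6a, a transmembrane ligand of the plexins A2 and A4, was at 67.9, 106, 53.4 and 65.5 scaled counts in controls and at 124, 155, 376 and 981 with OGTi. The log2 fold change of Sema6a was 2.02 ± 0.54 (adjusted p = 0.0268), but the pairs ranged from 0.55 in pair 2 to 3.86 in pair 4. Without replicate 3 or 4 it was 1.71 or 1.40, neither of them called (adjusted p = 0.102 and 0.103). The neuronal tubulin gene Tubb3, of the marker list above, was also highest in OGTi replicates 3 and 4, at 10.03 and 16.9 TPM against 0.96 to 5.55 TPM in the other samples, and the part of neuronal RNA was not tested. Sema6d and Sema6a thus moved in opposite directions, and Sema6d stayed the more abundant on average, at 7.52 against 1.78 TPM in OGTi samples and 22.7 against 0.378 TPM in controls. Sema4b was at 6.99 ± 1.14 TPM in controls and 7.32 ± 2.85 TPM in OGTi samples, with a log2 fold change of 0.30 ± 0.29 (adjusted p = 0.534). Sema5a, which carries thrombospondin repeats, gave 0.33 ± 0.35 (adjusted p = 0.58), and neither of these signs held in every alternative. Sema4c, a ligand of B-type plexins, had groups that did not overlap but was not called, at -1.12 ± 0.37 (adjusted p = 0.0615), although it was called in 6 of the 15 alternatives. Sema7a, a lipid-anchored semaphorin that binds Plxnc1 and β1 integrins, had no count in any control library and 32 counts over the 4 OGTi libraries, at 2.05, 2.23, 9.93 and 21.8 scaled counts. Against a limit of 3 counts over the control group this is at least 11.1-fold higher by library totals. Sema7a passed the count filter through the OGTi samples alone and was not called (adjusted p = 0.0537). Its highest level was 0.36 TPM.

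Of the 9 plexins, the semaphorin receptors, Plxnb1 and Plxnd1 passed the test, both lower. All 9 had a log2 fold change below 0, but 8 of 9 did with DESeq2, with upper-quartile scaling, with the length trend removed or without replicate 4, and 7 of 8 without replicate 3. Plxnd1, the receptor of Sema3e and a regulator of vessel growth, was at 641, 462, 482 and 488 scaled counts in controls and at 173, 292, 129 and 150.5 with OGTi. Its groups did not overlap, with a log2 fold change of -1.54 ± 0.28 (adjusted p = 0.00458), and OGTi replicate 2 was the highest of the treated samples. Plxnb1, the receptor of Sema4d, was at 88.1, 113, 134 and 136 scaled counts in controls and at 65.5, 59.2, 36.4 and 44.8 with OGTi (-1.20 ± 0.34, adjusted p = 0.0351). The Plxnb1 call was lost without replicate 2, 3 or 4, with adjusted p of 0.0698, 0.175 and 0.136, with upper-quartile scaling (0.0559) and with the length trend removed (0.0866). The more abundant plexins were not called. Plxnb2, a receptor of class 4 semaphorins, was at 8899, 9898, 9928 and 12610 scaled counts in controls and at 5292, 9698, 6718 and 7462 with OGTi. Its values overlapped and pair 2 differed by only -0.03 (-0.53 ± 0.20, adjusted p = 0.0995). Plxna1, the partner of Sema6d and of Nrp1, gave -0.26 ± 0.21 (adjusted p = 0.438), and Plxna2, Plxna3, Plxna4, Plxnb3 and Plxnc1 had means of at most 1.21 TPM in either group.

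Neither neuropilin was called. Nrp1 was at 13220, 10970, 9673 and 9099 scaled counts in controls and at 6612, 12850, 11710 and 9179 with OGTi. Only pair 1 was lower, with a difference of -0.999, while the other pairs differed by 0.01 to 0.28, and the log2 fold change was -0.11 ± 0.24 (adjusted p = 0.796). Its sign turned to 0.009 under upper-quartile scaling, to 0.15 with the length trend removed and to 0.17 without replicate 1. Nrp2 averaged 0.960 TPM in controls and 0.540 TPM with OGTi (-0.60 ± 0.46, adjusted p = 0.412). In these cells the ligand Sema3a was thus called lower, while its co-receptor Nrp1 and the plexin Plxna1 were not. The ligand Sema3e missed the threshold, while its receptor Plxnd1 was called lower.

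Of the 5 ephrin-As, Efna4 and Efna5 were called lower. Efna4 was at 56.0, 95.8, 82.9 and 29.9 scaled counts in controls and at 0, 6.70, 3.31 and 1.15 with OGTi, or 291 counts over the 4 control libraries and 10 over the 4 OGTi libraries. Its log2 fold change, -4.69 ± 0.62 (adjusted p = 0.00107), was the furthest from 0 of the 13 called genes in this fit. Efna5, the more abundant of the pair, was at 3165, 2260, 3279 and 2841 scaled counts in controls and at 2458, 1530, 1964 and 1183 with OGTi. Control replicate 2 was below OGTi replicate 1, but each pair fell (-0.73 ± 0.22, adjusted p = 0.0438). The Efna5 call was lost without replicate 2, 3 or 4 (adjusted p = 0.0928, 0.165 and 0.167), without the replicate block (0.0881), with upper-quartile scaling (0.099) and with the length trend removed (0.219). Efna1, Efna3 and Efna4 lie next to one another on the minus strand within 66.3 kb at chr3:89179037-89245373 (GRCm39). Efna1 and Efna3 reached at most 1.38 and 0.21 TPM in any library and were not called, at -0.35 ± 0.58 and -0.68 ± 0.89.

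None of the 3 ephrin-Bs was called. Efnb2, the ligand of Ephb4 and a marker of arteries, was at 698, 596, 637 and 574 scaled counts in controls and at 455, 564, 529.7 and 431 with OGTi. Those groups did not overlap, yet Efnb2 was not called (-0.34 ± 0.22, adjusted p = 0.316). Efnb1 gave -0.40 ± 0.28 (adjusted p = 0.371), and Efnb3 did not exceed 0.13 TPM in any library.

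Among the 7 EphA receptors tested, Epha7 was called lower and Epha10 higher. Epha7 was at 4254, 3809, 4149 and 4331 scaled counts in controls, a narrow range, and at 516, 2142, 2059 and 1326 with OGTi. OGTi replicate 1 was the lowest of the treated samples, and the log2 fold change was -1.63 ± 0.35 (adjusted p = 0.010). Without replicate 4 its adjusted p was 0.0536. Epha10, a family member that lacks kinase activity, was at 5.50, 7.92, 6.45 and 6.74 scaled counts in controls and at 104, 31.3, 92.7 and 95.3 with OGTi. Each OGTi value was above every control value, with a log2 fold change of 3.46 ± 0.49 (adjusted p = 0.00149), although its level with OGTi was only 1.25 ± 0.451 TPM. Epha2, the most abundant Eph receptor, was at 4431, 4019, 5014 and 5237 scaled counts in controls and at 2635, 4436, 4022 and 5256 with OGTi. Its values overlapped (-0.23 ± 0.21, adjusted p = 0.514), and so did those of Epha3 (-0.78 ± 0.31, adjusted p = 0.115). In controls Epha7 was at 40.1 ± 2.28 TPM and Epha2 at 70.2 ± 9.20 TPM, and with OGTi they were at 12.3 ± 6.85 and 50.1 ± 16.7 TPM.

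Ephb4 was the single EphB receptor called. This receptor of Efnb2, known for marking veins, was at 767, 1259, 916 and 856 scaled counts in controls and at 185, 419, 275 and 179 with OGTi. The groups were well apart and the 4 pairs ranged from -1.58 to -2.24, with a log2 fold change of -1.91 ± 0.23 (adjusted p = 0.000731). The remaining 4 EphB receptors had means below 1 TPM in both groups and log2 fold changes from -0.91 to 1.01, none of them called.

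In the Slit and Robo families, Robo1 was called lower. It was at 272, 245, 450.3 and 448 scaled counts in controls and at 106, 233, 144 and 195 with OGTi. Pair 2 differed by -0.07 and the other pairs by -1.19 to -1.64 (-1.07 ± 0.30, adjusted p = 0.0332). The Robo1 call was lost without replicate 1, 3 or 4 (adjusted p = 0.093, 0.172 and 0.124) and with limma on unfiltered TPM (0.0977). Robo2, the more abundant receptor, was at 2145, 991, 3347 and 8190 scaled counts in controls and at 906, 2178, 2268 and 3719 with OGTi. Its control samples spread widely, with replicate 4 highest and replicate 2 above OGTi replicate 1 alone, and it was not called (-0.48 ± 0.37, adjusted p = 0.411). Slit3, the highest of the Slits, stayed at or under 0.33 TPM and gave 1.29 ± 0.88 (adjusted p = 0.352). Robo4, known from endothelium, had 18 counts in controls, all in replicate 1, and 1 with OGTi.

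Unc5b, a netrin receptor that also acts in endothelium and in cell survival, was the single called gene of the netrin and Unc5 families. It was at 1590, 1774, 2725 and 1801 scaled counts in controls and at 831, 823, 519.7 and 503 with OGTi. The lowest control value was above the highest OGTi value, with a log2 fold change of -1.57 ± 0.28 (adjusted p = 0.00436). Its ligand Ntn1 was at 1159, 948, 1950 and 2216 scaled counts in controls and at 963, 970.4, 1089 and 1824 with OGTi. The Ntn1 groups overlapped (-0.34 ± 0.22, adjusted p = 0.335). Unc5a was at 1.58 TPM in controls and 0.745 TPM with OGTi (-0.94 ± 0.33, adjusted p = 0.0748), and it was lower in all 4 pairs. Dcc, the attractive netrin receptor, was at 0.03 TPM or less in 7 libraries and at 0.17 TPM in the other, while the related neogenin gene Neo1 averaged 6.35 TPM in controls and 5.06 TPM with OGTi (-0.12 ± 0.29).

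**Figure D3:**
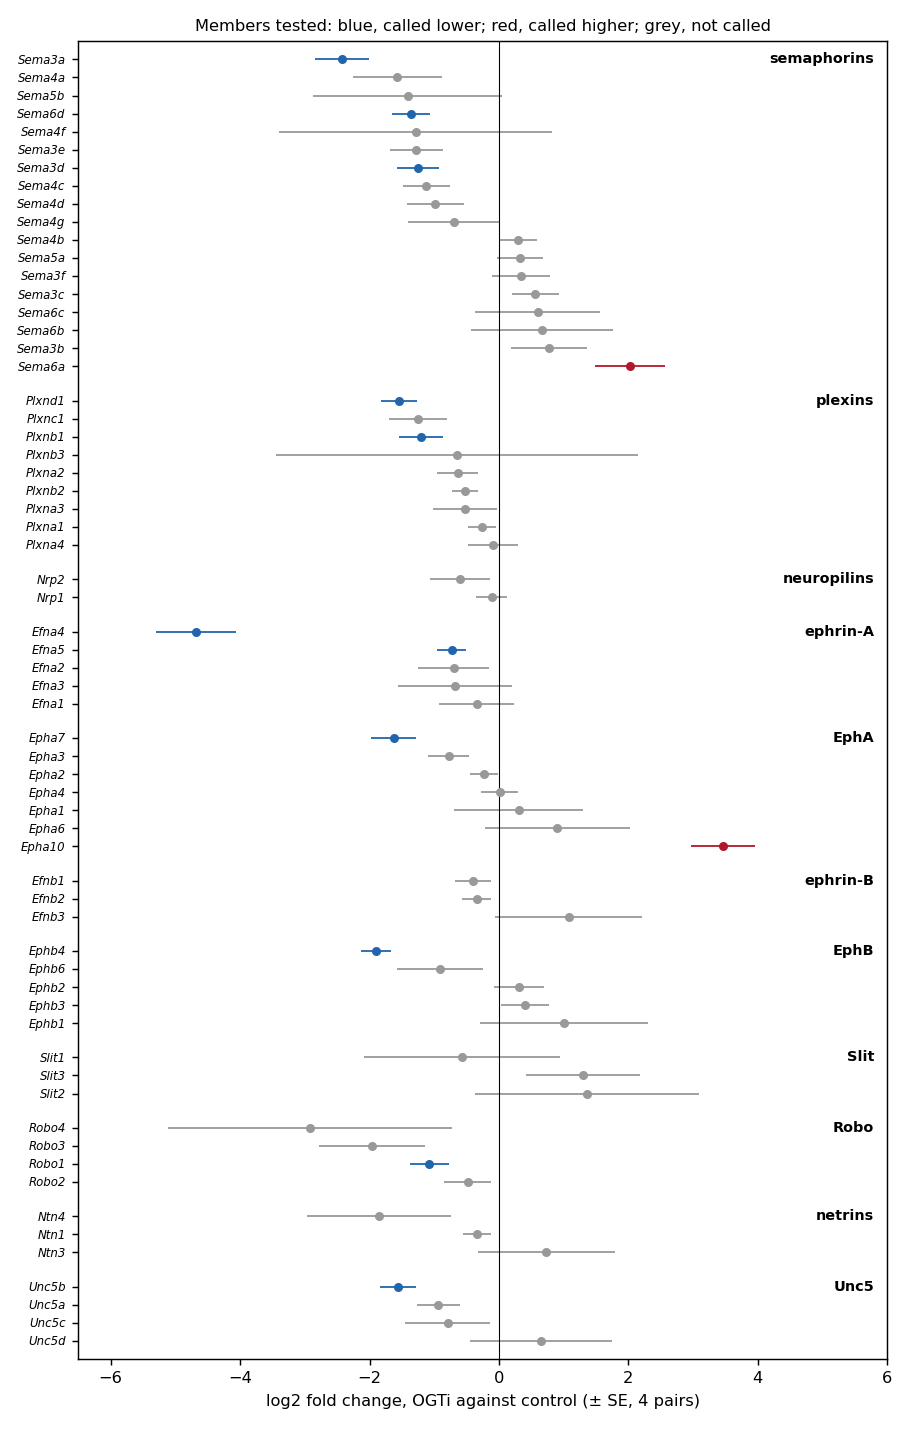
Log2 fold change of OGTi against control (x axis, bars show ± SE, n = 4 pairs) for the 63 tested guidance genes with counts in both groups, by family, with blue for called lower, red for called higher and grey for not called. The plexins, Robos, ephrin-As and neuropilins lie left of 0 in this fit, and the other families fall on both sides. Those left of 0 were named together for their sign, so the shared sign is a description only. Among them Plxnb3 and Robo4 had counts in 1 library per group. In other settings, 8 of 9 plexins were below 0 (DESeq2, upper-quartile scaling, the length trend removed or without replicate 4). Without replicate 3 it was 7 of 8 plexins, and without replicate 4 it was 4 of 5 ephrin-As. Of the 2 neuropilins, 1 was below 0 with upper-quartile scaling, the length trend removed or without replicate 1. Of all genes tested, 9940 of 19963 were below 0 and 10.2% were called lower, against 43 of 64 and 17.2% of the guidance genes.

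Ephb4, Unc5b, Plxnd1 and Robo4 are also known from endothelial cells. Of 10 endothelial markers, 9 stayed under 1 TPM in every library, and the whole list summed to 1.57 to 3.42 TPM in controls and 0.36 to 1.36 TPM in OGTi samples. Tek and Lyve1 were called lower, and 6 of the 9 endothelial markers tested had a log2 fold change below 0. The defining markers Pecam1 and Cdh5 reached at most 0.45 and 0.08 TPM. They were not called and lay above 0, at 1.33 ± 0.78 and 0.18 ± 2.60. In the 4 control libraries Ephb4 was at 8.97, 14.7, 11.1 and 10.2 TPM and Unc5b at 13.6, 15.2, 24.2 and 15.7 TPM. Plxnd1 was at 4.50, 3.24, 3.50 and 3.49 TPM there and Robo4 at 0.25, 0, 0 and 0 TPM. The part of endothelial RNA in these differences was not tested.

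The study concerns TEAD4, whose family recognises the letters GGAATG. These letters were searched on both strands of the RefSeq windows. They were found in 9 of the 59 guidance genes with a window (15.3%), against 16.6% of the 27025 genes in the table and 15.7% of those tested here. Of the 12 called genes with a window 2 held them, Plxnd1 and Plxnb1, both called lower. The longer form AGGAATG, which contains the first, was in 3 guidance genes (5.08%, against 6.15% of all) and in no called gene. Both windows are printed with GGAATG or its reverse complement in capitals, chr6:115994956-115995255 for Plxnd1 and chr9:109095186-109095485 for Plxnb1 (GRCm38.p6, on the gene's strand).
Plxnd1: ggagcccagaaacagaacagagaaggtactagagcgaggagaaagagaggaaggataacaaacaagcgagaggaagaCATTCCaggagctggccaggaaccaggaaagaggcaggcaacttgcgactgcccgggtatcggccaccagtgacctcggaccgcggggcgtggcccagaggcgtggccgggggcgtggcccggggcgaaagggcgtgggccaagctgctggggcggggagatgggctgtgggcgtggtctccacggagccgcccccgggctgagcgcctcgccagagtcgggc
Plxnb1: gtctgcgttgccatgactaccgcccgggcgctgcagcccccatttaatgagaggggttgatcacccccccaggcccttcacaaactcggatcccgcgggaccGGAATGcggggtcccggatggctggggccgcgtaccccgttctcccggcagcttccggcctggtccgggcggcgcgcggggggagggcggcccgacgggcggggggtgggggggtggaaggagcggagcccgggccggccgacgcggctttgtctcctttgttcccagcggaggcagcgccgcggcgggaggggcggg
The starts of these windows lie 0.3 and 1.6 kb inside the annotated genes, and 49 of the 59 guidance genes had a window within 1 kb of the gene start. In Plxnd1 the letters are on the minus strand relative to the gene and in Plxnb1 on its plus strand. Among the 22 guidance genes with a window and at least 1 TPM, 5 held GGAATG (22.7%, against 14.5% of all genes at that level) and 2 held AGGAATG (9.09%, against 5.25%). Those 5 were Epha2, Plxnd1, Efnb2, Epha3 and Robo2, and only Plxnd1 of them was called. A gene with several windows was counted when any of them held the letters. A match is a description and not a binding site.

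Beside these families, 90 other genes of guidance signalling (27 ligands and receptors and 63 cytoplasmic effectors) were examined, and 17 of the 86 tested were called lower (19.8%) and 1 higher (1.16%), with a median log2 fold change of -0.26. The share called, 20.9%, was near the 18.4% of all genes tested, of which 10.2% were lower and 8.13% higher. Among 23 further ligands and receptors, Dscam, Sdc1 and Sdc3 were lower (13%). Dscam, a netrin-binding adhesion molecule, changed by -4.17 ± 0.91 (adjusted p = 0.0108), and the heparan sulphate proteoglycans Sdc1 and Sdc3 by -1.13 ± 0.26 and -1.06 ± 0.23. Among 63 cytoplasmic effectors, 14 were lower (22.2%) and Fyn was higher. Of 5 collapsin response mediator genes, a family that includes microtubule-binding effectors of Sema3a signalling, Dpysl2, Crmp1 and Dpysl3 were lower. Dpysl4 (34 counts in controls and 0 with OGTi, adjusted p = 0.0561) and Dpysl5 (2.41 ± 1.15, adjusted p = 0.181) were not called. Dpysl2 was at 104 ± 42.9 TPM in controls and 24.0 ± 7.30 TPM in OGTi samples (-1.75 ± 0.29, adjusted p = 0.00332), Crmp1 changed by -2.60 ± 0.43 (adjusted p = 0.00314) and Dpysl3 by -0.98 ± 0.22 (adjusted p = 0.0122). Fes, a tyrosine kinase linked to plexin signalling, changed by -2.35 ± 0.34 (adjusted p = 0.00168), and Rnd1, whose product binds plexins, was at 203 ± 61.9 TPM in controls and 84.8 ± 9.90 TPM in OGTi samples (-0.88 ± 0.24, adjusted p = 0.0312). Mical2, Vasp, Ptk2, Dock1, Farp1, Pak3, Sh3bp1, Ablim1 and Tln1, which act in cytoskeletal, adhesion or kinase signalling, were also called lower, with log2 fold changes from -1.73 to -0.74. Fyn, a Src-family kinase, rose by 1.67 ± 0.24 (adjusted p = 0.00166).

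Guidance genes have long transcripts, and 20 of the 25 with at least 1 TPM fell in the longest of 5 equal classes of the genes at that level, with a length of 4640 to 23529 bases. In this class 8 of the 20 were called lower (40%), against 17.9% of all 2332 genes of the class, and the medians were -0.76 and -0.23. Robo1 (1.97 TPM in controls and 0.752 with OGTi) reached 1 TPM through the controls alone, and Sema6a (0.378 and 1.78 TPM) through the OGTi samples alone. The counts of this class therefore depend partly on the changes themselves. Fold changes were related to length in pair 1, where the class medians of all genes at this level ran from 0.54 for the shortest to -0.68 for the longest. In pairs 2, 3 and 4 the longest class had medians of 0.10, -0.16 and -0.20. With the length trend removed from each library, 11 guidance genes were called, and of the 13 Efna5 and Plxnb1 (adjusted p = 0.219 and 0.0866) were lost. Their log2 fold changes went from -0.731 to -0.455 for Efna5 and from -1.201 to -1.005 for Plxnb1. The part of RNA quality in these differences was not tested. The pairs differed in size as well, and over the 25 guidance genes of at least 1 TPM the median difference was -0.999, -0.08, -0.60 and -0.90 in pairs 1 to 4.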

How the data were processed

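RNA from 4 control and 4 OGTi samples of pMF-HSCs was sequenced as paired-end, oligo-dT-enriched libraries. The authors aligned reads to mm39 with Bowtie2 2.3.5.1 and deposited RSEM 1.3.1 expected counts per gene, which are not whole numbers where reads were shared between transcripts. TPM values, deposited by the authors from the same RSEM run, are scaled by effective length and library. A further deposited table with DESeq2 (1.36.0) comparisons holds the authors' fold changes and p-values and was not used. Groups came from the GEO labels. Expected counts were rounded and tested with edgeR 4.0.16 (R 4.3.3) by quasi-likelihood F-test, with TMM scaling, genes of at least 10 counts in total, and replicate as a block because the study's methods pair the samples. Deviations from group means of same-numbered samples correlated at 0.197 to 0.433, and those of differently numbered samples at -0.489 to 0.28. SE is the absolute log2 fold change divided by the square root of F. Alternatives used DESeq2 1.42.0, limma 3.58.1 on log2(TPM + 1) and log2(TPM + 0.1) for genes of at least 0.1 mean TPM, other scalings and filters, a lowess length correction (span 0.3) and each replicate left out. Text names every called guidance gene, the highest-TPM gene of each family and, added after values were seen, those with a mean of at least 1 TPM or a group at 0, plus single genes that a comparison turned on. The guidance genes, pathway and marker lists were chosen with earlier results of these data known. With 30068876 to 37372420 counts per library, floors cover counting error only. SEs and p-values come from the same fit and cover only the spread between these 4 pairs.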

Additional observations from a re-analysis of the deposited data

Results flagged for a closer look

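In 4 of 58 groups of 4 samples, taken from the 29 guidance genes described, 1 sample lay so far from the other 3 that its gap exceeded Dixon's limit at 95%. Chance gives such a gap in about 1 in 20 groups, or 2.9 here. Epha10, which was called higher, was at 31.3 scaled counts in OGTi replicate 2 and at 92.7 to 104 in the other OGTi samples, all above the controls. Plxnd1, called lower, was at 641 scaled counts in control replicate 1 and at 462 to 488 in the other controls. Ntn1 was at 1820 scaled counts in OGTi replicate 4 and at 963 to 1090 in the rest. Efnb1 was at 169 scaled counts in OGTi replicate 1 and at 115 to 124 in the rest.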

How the results depend on the processing

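Of the 13 called guidance genes, Efna4, Epha10, Ephb4, Plxnd1, Sema3a and Unc5b were called in all 15 alternatives. Among the 432 values of single genes under an alternative, 372 kept direction and side of the threshold, 31 lost a call, 22 gained one and 7 changed sign, none of these 7 a called gene. The signs turned for Nrp1 (0.009 with upper-quartile scaling, 0.146 with the length trend removed, and from -0.247 to 0.174 when a replicate was left out), Sema4b (-0.017 with limma on TPM + 1 with or without the filter, -0.035 on TPM + 0.1) and Sema5a (-0.017 on TPM + 0.1). Without the low-count filter 20 guidance genes were called, 17 of them lower, and the 7 gained genes were all tested in the reported fit too. With the threshold moved to 0.01, calls fell to 7 guidance genes (1 higher, 6 lower) and 6 partner genes, and those over all genes from 3666 to 1668. With limma on TPM 1 was called higher in each of the 3 versions, Sema6a being lost, and the unfiltered version also lost Robo1 and Sema3d. The median log2 fold change was -0.758 with library totals alone, -0.353 with the length trend removed, -0.804 with limma on TPM + 0.1 and -0.121 on TPM + 1 without a filter. The cause of these shifts was not tested. Library totals moved the median of all genes to -0.187 and the share of higher among all calls from 44.3% to 30.1%, with 2 guidance genes called higher and 16 lower. Upper-quartile scaling moved that median to 0.129 and that share to 54.2%, with 3 guidance genes called higher and 10 lower, and removing the length trend moved the share to 51.9%. Leaving out one replicate gave 7 to 15 called guidance genes (7 without replicate 3 and 7 without replicate 4, where 1905 and 1956 of all genes were called), 1 to 3 higher, 6 to 12 lower, 7 to 17 partner genes and medians from -0.472 to -0.345. Without replicate 1 Sema5a (0.79, adjusted p = 0.0394 by edgeR) and without replicate 2 Robo2 (-0.96, adjusted p = 0.0411) were called. With no replicate block 13 were called, 12 of them shared, with Efna5 lost and Sema7a gained (adjusted p = 0.0284). The pairing changed no other guidance gene's call. In the other direction, Sema3e was called in 7 alternatives, Sema4c in 6, Unc5a in 5, Sema7a in 4 and Plxnb2 and Robo3 in 3 each. Sema7a had no adjusted p in 3 alternatives. Of the 39 tested genes with a mean below 1 TPM, 2 were called. Whether the counts of the others sufficed to tell modest differences from none was not tested.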

Other observations

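Among guidance genes at low levels, the counts of some came from single samples. Robo4 was at 16.5 scaled counts in control replicate 1, at 1.02 in OGTi replicate 1 and at 0 in the other samples. Plxnb3 was at 12.9 scaled counts in control replicate 3, at 4.10 in OGTi replicate 1 and at 0 elsewhere. Ephb6, which like Epha10 lacks kinase activity, was at 51.1 to 94.97 scaled counts in the controls and at 35.8, 103, 1.10 and 55.1 in OGTi replicates 1 to 4, so that OGTi replicate 3 alone was near 0. Robo3 was at 20.2 to 56.9 scaled counts in controls and at 0 to 17.4 with OGTi, without overlap, and was not called by edgeR (adjusted p = 0.131).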
